A study of Mus musculus with 12 samples.

Results

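Genes of DNA replication, G2 and mitosis were examined in conventional dendritic cells (cDC) of mouse spleen. Of 40 listed genes, 39 had a probe set that carried a single gene symbol, out of 19938 genes with such a value; Ccnb1, which encodes cyclin B1, had no such probe set and was not analysed here. The members were listed by known function, 17 for DNA replication and 22 for G2/M and mitosis among those measured, with no threshold on a measured value. Earlier results of these data were known when the members were listed. Each gene was read from its probe set with the highest mean. RNA was taken from mature cDC1 and mature cDC2 sorted from spleens that were digested with collagenase and DNase, and it was hybridised to 12 GeneChip arrays. Each cell type came from WT, Flt3 KO and Flt3L KO mice at steady state with no treatment named, which gives 6 groups of 2 biological replicates. Flt3 encodes a receptor tyrosine kinase of dendritic cells and their progenitors, and Flt3L is its ligand. The labels do not say how the knockouts were made, which strain or age was used, how cells were gated, or how many mice stand behind an array. The p-values therefore cover only the spread from array to array, which may be partly technical.

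The cell cycle genes fall into waves that follow the phases of division. In late G1 and S phase, E2F factors drive genes that load and fire the replicative helicase: Cdc6 loads the Mcm2 to Mcm7 ring on origins, and Cdc45 and the GINS complex turn the ring into a working helicase. In G2 and mitosis the MuvB complex, with B-Myb and FoxM1, drives the genes of cyclins, mitotic kinases, centromere proteins and spindle motors, mainly through CHR elements and CCAAT boxes that bind NF-Y. Splenic cDC arise from dividing precursors, and Flt3L signalling through Flt3 is known to support the expansion of those precursors. In a bulk sample, fewer dividing cells and less RNA of these genes per cell cannot be told apart.

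The promoters of some members that the comparisons turn on are shown first, with the letters searched for the factors of each wave. RefSeq promoters (GRCm38.p6) of 300 bases, 250 before the start and 50 after it, were found for 32 of the 39 members, which had 35 promoters in the table. For each gene below, the 150 bases before its first listed start are printed 5′ to 3′ on the gene's strand. Capitals mark the searched letters on either strand, which are TTTGAA for the CHR, CCAAT for the CCAAT box, and TTTCGCGC, TTTGGCGC or TTTCCCGC for E2F.
Cdc6, chr11:98908001-98908150, + strand: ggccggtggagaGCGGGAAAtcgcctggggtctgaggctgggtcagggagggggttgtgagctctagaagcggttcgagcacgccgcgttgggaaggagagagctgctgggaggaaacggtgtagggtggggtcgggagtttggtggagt
Mcm6, chr1:128359706-128359855, - strand: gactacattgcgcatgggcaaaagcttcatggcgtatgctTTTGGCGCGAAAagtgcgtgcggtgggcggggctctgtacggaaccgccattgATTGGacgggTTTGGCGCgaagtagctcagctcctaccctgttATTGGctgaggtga
Cdk1, chr10:69352913-69353062, - strand: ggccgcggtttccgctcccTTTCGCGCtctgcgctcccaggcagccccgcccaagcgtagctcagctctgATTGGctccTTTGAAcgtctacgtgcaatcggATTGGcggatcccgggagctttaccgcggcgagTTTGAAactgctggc
Cenpa, chr5:30666736-30666885, + strand: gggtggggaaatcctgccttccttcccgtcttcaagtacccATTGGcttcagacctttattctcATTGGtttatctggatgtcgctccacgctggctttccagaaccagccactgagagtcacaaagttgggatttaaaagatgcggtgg
Kif11, chr19:37376232-37376381, + strand: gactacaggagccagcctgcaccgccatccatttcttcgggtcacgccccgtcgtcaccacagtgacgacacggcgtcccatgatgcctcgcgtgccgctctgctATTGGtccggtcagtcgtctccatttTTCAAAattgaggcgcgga
Ccnb2, chr9:70421555-70421704, - strand: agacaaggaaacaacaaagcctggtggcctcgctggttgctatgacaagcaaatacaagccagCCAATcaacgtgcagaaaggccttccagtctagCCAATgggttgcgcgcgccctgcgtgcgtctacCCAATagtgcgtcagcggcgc
Ube2c, chr2:164769779-164769928, + strand: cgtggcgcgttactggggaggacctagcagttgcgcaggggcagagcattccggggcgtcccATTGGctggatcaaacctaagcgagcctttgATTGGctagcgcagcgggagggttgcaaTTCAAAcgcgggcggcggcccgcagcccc
The replication gene Cdc6 had 1 E2F match and no CHR or CCAAT match in this window. Mcm6 had 3 E2F matches, of which a pair overlap on opposite strands, and 2 CCAAT boxes. The G2/M gene Cdk1 had 2 CHR matches, 2 CCAAT boxes and 1 E2F match. Ccnb2 had 3 CCAAT boxes, Ube2c had 2 CCAAT boxes and 1 CHR match, Kif11 had 1 CCAAT box and 1 CHR match, and Cenpa had 2 CCAAT boxes. The replication gene Cdc45 and the mitosis gene Prc1 were searched in the same window but are not printed. Each had 1 CCAAT box and no E2F or CHR match. Over the full promoters, the E2F letters stood in 6 of 14 replication genes and 1 of 18 mitosis genes, and in 20% of the members' promoters against 1.84% of the 32851 promoters in the table. The CHR letters stood in 2 of 14 replication genes and 14 of 18 mitosis genes, or 48.6% of the members' promoters against 17.9% of all. CCAAT stood in 10 of 14 and 15 of 18, or 80% of the members' promoters against 37.4% of all. These are matches of letters and not measured binding sites. The letters were chosen with the members' promoters in view, so the shares describe these promoters and are no independent test of an excess.

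The arrays were alike in overall level, with median intensities from 59 to 63, and their number limits the precision of every value. Replicate 1 of WT cDC1 stood apart, with a lower quartile of 25.7 against 23.3 to 24.3 elsewhere. The sorted cells carried the markers of their labels: all 8 cDC1 markers tested were higher and all 6 cDC2 markers were lower in WT cDC1 than in WT cDC2, with median log2 differences of 3.87 and -3.65. Flt3, which checks the Flt3 KO label, averaged 364 in Flt3 KO cDC1 and 361 in Flt3 KO cDC2, against 1642 to 2441 in the other groups. Flt3l, the ligand's gene, had group means of 113 to 147; since the deleted part is unknown here, these values are no check of the ligand knockout. All 39 members passed the filter on dim genes, which kept 14953 genes with a mean log2 intensity of at least 4.78. The dimmest member, Prc1, had a mean log2 of 5.24.

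**Figure D1:**
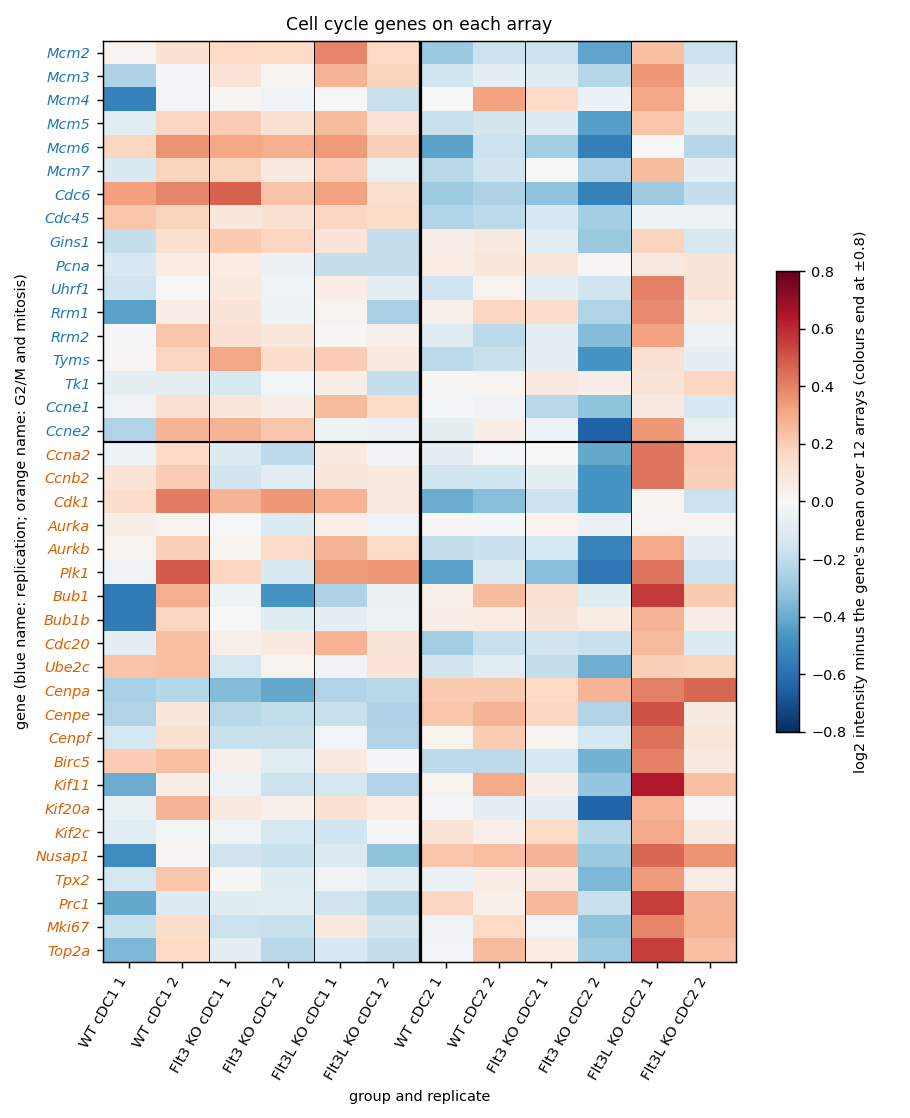
Heat map of the 39 members (rows) on the 12 arrays (columns), as log2 intensity minus the gene's mean over arrays. Replicate 1 of Flt3L KO cDC2 is the reddest column, with the highest value of 22 members, and replicate 2 of Flt3 KO cDC2 is the bluest, with the lowest value of 23.

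The comparison of cDC1 with cDC2 asks whether the branches differ in proliferation genes. Averaged over the genotypes, 12 of 39 members were higher in cDC1 and 11 were lower, at an adjusted p under 0.05 in limma over all genes tested. The same rule called 51.6% of all genes, 28.1% higher and 23.5% lower, so the share of members called was near the background. The median log2 difference was 0.08 over the members and 0.03 over all genes. The replication members leaned towards cDC1, with 7 of 17 higher and 3 lower (median 0.15). The G2/M and mitosis members leaned the other way, with 5 of 22 higher and 8 lower (median -0.10). The difference between these classes was not tested.

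Among the 9 members that load and fire the helicase, 5 were higher in cDC1 and 1 was lower, with a median log2 difference of 0.25. Of all genes tested, 28.1% were called higher and 23.5% lower. Outside the members, Gins3 of the GINS complex was lower in cDC1, with a difference of -0.54 ± 0.06 (SE), and Gins2 was higher by 0.37 ± 0.06 (SE). Cdc6, the loader of the Mcm ring, had intensities of 93.4 and 97.2 in WT cDC1, 103 and 86.8 in Flt3 KO cDC1, and 92.3 and 81.2 in Flt3L KO cDC1. In cDC2 its values were 60.7 and 62.2 in WT, 59.5 and 50.9 in Flt3 KO, and 60.6 and 64.9 in Flt3L KO. Every cDC1 array lay above every cDC2 array. The difference was 0.63 ± 0.06 (SE) on the log2 scale, or 1.54-fold, with an adjusted p of 1.15e-06 in limma.

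Mcm6, a subunit of the ring, was also higher in cDC1. Its intensities were 338 and 384 in WT cDC1, 372 and 367 in Flt3 KO cDC1, and 379 and 342 in Flt3L KO cDC1. In cDC2 they were 222 and 267 in WT, 248 and 204 in Flt3 KO, and 300 and 257 in Flt3L KO. No cDC1 array overlapped a cDC2 array, and the difference was 0.55 ± 0.07 (SE), with an adjusted p of 1.61e-05 in limma. Cdc45, the helicase partner, ranged from 174 to 191 in cDC1 and from 136 to 160 in cDC2, a log2 difference of 0.31 ± 0.04 (SE). Mcm2 and Mcm5 were higher in cDC1 by 0.33 ± 0.08 (SE) and 0.25 ± 0.07 (SE). Mcm4, a subunit of the same ring, was lower in cDC1, with a log2 difference of -0.25 ± 0.09 (SE). Mcm3, Mcm7 and Gins1 had differences of 0.10, 0.15 and 0.08 that did not pass the threshold.

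The other replication members split. Tyms, which makes thymidylate, was higher in cDC1 by 0.30 ± 0.07 (SE), and Ccne1, the G1/S cyclin E1, by 0.21 ± 0.05 (SE). Pcna, the sliding clamp of the fork, was lower by 0.14 on the log2 scale, and both of its probe sets gave -0.14. Tk1, the thymidine kinase of the salvage path, was also called lower, with a difference of -0.14, but its other probe set gave 0.04. Rrm1 and Rrm2, the subunits of ribonucleotide reductase, had differences of -0.18 and 0.16, and Uhrf1, which helps to keep DNA methylation at the fork, had -0.05, none past the threshold.

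Of the cyclins and the kinase that drive entry into mitosis, only Cdk1 was called. Cdk1, the mitotic kinase, had intensities of 251 and 305 in WT cDC1, 277 and 291 in Flt3 KO cDC1, and 278 and 242 in Flt3L KO cDC1. In cDC2 it had 173 and 180 in WT, 204 and 164 in Flt3 KO, and 233 and 203 in Flt3L KO. Again no cDC1 array overlapped a cDC2 array, and the log2 difference was 0.51 ± 0.07 (SE), with an adjusted p of 3.72e-05 in limma. Its cyclin partners Ccna2 and Ccnb2 had averaged differences of -0.05 and 0.08. Plk1, the polo-like kinase, was higher in cDC1 by 0.40 ± 0.11 (SE), Aurkb, the kinase of the chromosomal passenger complex, by 0.27 ± 0.08 (SE), and Cdc20, an activator of the anaphase-promoting complex, by 0.22 ± 0.07 (SE). Ube2c, the ubiquitin-conjugating enzyme of that complex, was higher by 0.15 ± 0.05 (SE). Bub1, a kinase of the spindle checkpoint, was lower, with a difference of -0.36 ± 0.13 (SE) and an adjusted p of 0.0337 in limma. That call was lost without replicate 1 of WT cDC1, Flt3L KO cDC1, Flt3 KO cDC2 or Flt3L KO cDC2, and without replicate 2 of Flt3 KO cDC1 or WT cDC2, when each was left out in turn.

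Of the 12 members of the centromere, spindle and mitotic chromosome, 7 were called lower in cDC1 and 0 higher. Of all genes tested, 23.5% were called lower and 28.1% higher. Birc5 and Kif20a, which belong to these roles, had positive differences of 0.15 and 0.17 that did not pass the threshold. Cenpa, the histone H3 variant of centromeres, had intensities of 568 and 582 in WT cDC1, 538 and 512 in Flt3 KO cDC1, and 578 and 586 in Flt3L KO cDC1. In cDC2 it had 791 and 788 in WT, 762 and 825 in Flt3 KO, and 902 and 941 in Flt3L KO. It had the largest fall among the members, with a log2 difference of -0.57 ± 0.04 (SE), or 1.49-fold, an adjusted p of 8.88e-08 in limma and no overlap of any cDC1 array with a cDC2 array. Nusap1 and Prc1, which bundle spindle microtubules, had differences of -0.42 ± 0.10 (SE) and -0.37 ± 0.08 (SE). Kif11, the motor that pushes spindle poles apart, had -0.32 ± 0.10 (SE), the kinetochore proteins Cenpe and Cenpf had -0.33 and -0.22, and Top2a, the topoisomerase of mitotic chromosomes, had -0.27 ± 0.10 (SE). Mki67, the common proliferation marker, had a difference of -0.15 that did not pass (adjusted p = 0.107 in limma).

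The single arrays behind some of these calls overlapped between the cell types. Nusap1 had 133 and 191 in WT cDC1, 169 and 166 in Flt3 KO cDC1, and 174 and 151 in Flt3L KO cDC1, against 219 and 223, 227 and 153, and 260 and 242 in the cDC2 of the same genotypes. Its groups overlapped in Flt3 KO, where replicate 2 of cDC2 was low, and were apart in WT and Flt3L KO. Plk1 had 126 and 180 in WT cDC1, 144 and 118 in Flt3 KO cDC1, and 162 and 164 in Flt3L KO cDC1, against 94.9 and 118, 102 and 86.6, and 172 and 114 in cDC2. Its groups overlapped in Flt3L KO, where replicate 1 of cDC2 was high. Mki67 had 521 and 650 in WT cDC1, 524 and 518 in Flt3 KO cDC1, and 623 and 529 in Flt3L KO cDC1, against 576 and 657, 581 and 471, and 771 and 717 in cDC2. The proliferation marker was thus highest in Flt3L KO cDC2, with overlapping groups in the other genotypes.

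The remaining members did not pass in the averaged comparison. Bub1b, a checkpoint protein, had a log2 difference of -0.20 ± 0.10 (SE), Kif2c, a kinesin that takes microtubules apart, had -0.15 ± 0.07 (SE), and Tpx2, an activator of Aurka, had -0.04 ± 0.08 (SE). Kif20a and Ccne2 had 0.17 ± 0.09 (SE) and 0.14 ± 0.11 (SE), and Birc5 had 0.15 ± 0.06 (SE) with an adjusted p of 0.061 in limma. Aurka, a kinase of the spindle poles, varied least of all members, from 139 to 156 over the arrays, a range of 0.16 on the log2 scale. The widest ranges were those of Bub1 (1.12), Plk1 (1.05), Kif11 (1.03) and Cdc6 (1.02).

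**Figure D2:**
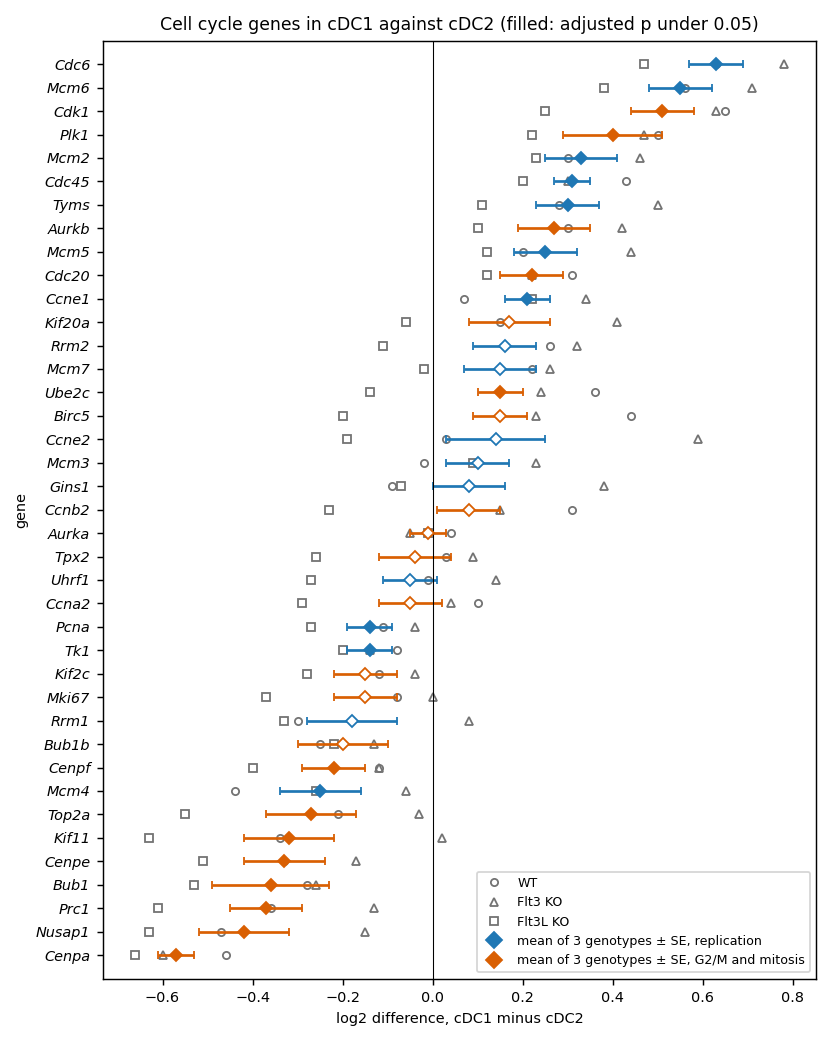
Log2 difference of cDC1 minus cDC2 for each member, with the mean over genotypes as a diamond with its SE and each genotype as an open symbol. Cdc6, Mcm6 and Cdk1 stand at the top, from 0.51 to 0.63, and Cenpa at the bottom at -0.57; filled diamonds passed an adjusted p under 0.05.

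The cell types were also compared within each genotype. In WT, 6 members were higher and 3 lower in cDC1, where 39.4% of all genes were called, 21% higher and 18.4% lower. Under quantile normalization the WT count was 15, with 11 higher and 4 lower. The Flt3 KO mice had 11 members higher and 1 lower, where 35.5% of all genes were called, 19.1% higher and 16.4% lower. The Flt3L KO mice had 2 members higher and 9 lower, where 34.8% of all genes were called, 18.9% higher and 15.9% lower. Cdc6, Mcm6 and Cenpa were called in the same direction in all 3 genotypes, 7.69% of the members against 24.8% of all genes tested. Groups did not overlap in any genotype for 4 members that were higher in cDC1 (Cdc6, Mcm6, Cdk1 and Cdc45), or 10.3% against 21.7% of all genes. The same held for Cenpa and Tk1 among the lower ones, or 5.13% against 18.2%.

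The other members called in WT were Cdk1, Cdc45, Ube2c and Birc5, all higher in cDC1, and Nusap1 and Mcm4, both lower. Birc5, the survivin subunit of the passenger complex, had 267 and 276 in WT cDC1 against 201 and 201 in WT cDC2, a log2 difference of 0.44 ± 0.11 (SE). Without replicate 2 of WT cDC1, 16 members were called in WT, 6 higher and 10 lower. Replicate 1 of that group, the array that stood apart, then represented WT cDC1 alone. Without replicate 1, 9 were called, 8 higher and 1 lower, and Nusap1 and Mcm4 were no longer among them, with differences of -0.21 and -0.19. Nusap1 also lost its call without either array of WT cDC2, and Mcm4 without replicate 2 of WT cDC2.

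In Flt3 KO the calls were mostly replication genes, 9 of 17, against 2 higher and 1 lower of 22 G2/M and mitosis members. Besides Cdc6 and Mcm6, the higher members were Cdc45, Mcm2, Mcm5, Gins1, Tyms and both E cyclins among replication genes, and Cdk1 and Aurkb among mitosis genes, while Cenpa was lower. Tyms had 272 and 242 in Flt3 KO cDC1 against 208 and 158 in Flt3 KO cDC2, a log2 difference of 0.50 ± 0.12 (SE). Ccne2 had 55.8 and 54.0 in Flt3 KO cDC1 against 45.05 and 29.6 in Flt3 KO cDC2, a log2 difference of 0.59 ± 0.19 (SE) with an adjusted p of 0.0294 in limma. The count rested on single arrays: it was 4 without replicate 2 of Flt3 KO cDC2 and 6 without replicate 1 of Flt3 KO cDC1. Ccne2 lost its call in both cases, and also without replicate 2 of Flt3 KO cDC1.

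In Flt3L KO, 8 of 22 G2/M and mitosis members were lower in cDC1 and 0 were higher, and 2 of 17 replication members were higher and 1 lower. Those lower were Cenpa, Cenpe, Cenpf, Kif11, Nusap1, Prc1, Top2a and Mki67, with Pcna among the replication genes. Kif11 had 168 and 157 in Flt3L KO cDC1 against 289 and 220 in Flt3L KO cDC2, a log2 difference of -0.63 ± 0.17 (SE). Prc1 had 33.7 and 32.1 against 55.1 and 45.5, and Top2a had 174 and 165 against 276 and 222. The groups did not overlap for any of these genes. The count fell to 5, with 4 higher and 1 lower, without replicate 1 of Flt3L KO cDC2, and to 4 without replicate 2 of Flt3L KO cDC1. Kif11 and Nusap1 lost their calls in both cases, Prc1 in the first, and Mcm6 lost its call without replicate 1 of Flt3L KO cDC1 or replicate 2 of Flt3L KO cDC2.

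Other genes of the cell cycle were listed by function, and 149 of them were tested. These lists were chosen with earlier results of these data known, so their counts are no independent check of the members' lean. In the averaged comparison, 28.1% of all genes tested were called higher in cDC1 and 23.5% lower, and the counts of each list are read beside these shares. The 70 other mitosis genes had 5 higher and 23 lower in cDC1 (median -0.09), and the 42 other replication genes had 14 higher and 7 lower (median 0.07). Ccnf, an F-box cyclin, was lower in cDC1, and fell by 1.0 on the log2 scale. Cks1b, a small partner of cyclin-dependent kinases, was higher in cDC1 by 1.02 ± 0.07 (SE), and Pold2, a subunit of DNA polymerase delta, by 0.59 ± 0.05 (SE). Besides Cks1b, the other mitosis genes called higher were Kif23 (0.42), Pbk (0.40), Cenpi (0.31) and Cenpm (0.28). Among the other replication genes, Gins3 and Dbf4 were lower, at -0.54 ± 0.06 (SE) and -0.38 ± 0.06 (SE), and Gins2 was higher by 0.37 ± 0.06 (SE). Of 17 G1 cyclins, kinases and E2F genes, 9 were higher and 5 lower in cDC1: Myc fell by 1.14 on the log2 scale, Ccnd2, a D-type cyclin, by 1.09, and E2f2 by 0.89, while Cdc25a, a phosphatase that activates kinases at G1/S, was higher by 0.74 ± 0.05 (SE). Of 14 inhibitors and quiescence genes, 2 were higher and 5 lower, led by Rb1, the retinoblastoma protein that restrains E2F, at -1.29 ± 0.06 (SE). Of 6 MuvB, B-Myb and FoxM1 genes, 1 was higher and 3 were lower, led by Lin54, the MuvB subunit that binds the CHR, at -1.30 ± 0.04 (SE), while Mybl2, which encodes B-Myb, was higher by 0.23 ± 0.06 (SE).

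The comparisons of each knockout with WT ask whether loss of the receptor or of the ligand changes these genes in cells that still mature. In cDC1, 0 of 39 members were called in either knockout by limma, where 0.0803% of all genes were called in Flt3 KO and 1.19% in Flt3L KO. At an unadjusted p under 0.05 in limma the counts were 3 and 2 of 39 members, against 1873 and 2558 of all 14953 genes. The members' median differences were 0.00 and -0.01. The smallest p in Flt3 KO belonged to Ube2c, with 59.2 and 66.8 in Flt3 KO cDC1 against 76.6 and 77.3 in WT cDC1, a log2 difference of -0.29 ± 0.09 (SE) and an adjusted p of 0.274 in limma. Ccnb2 followed at -0.27 ± 0.12 (SE) and Birc5 at -0.24 ± 0.11 (SE). In Flt3L KO it was Mcm3, with 434 and 411 against 304 and 355 in WT, a difference of 0.36 ± 0.13 (SE) and an adjusted p of 0.169 in limma. Ube2c and Pcna followed at -0.20 and -0.16. Without replicate 2 of WT cDC1, 1 member was called as higher in each of these comparisons, and the medians were 0.12 and 0.14, against -0.10 and -0.14 without replicate 1. Between the knockouts in cDC1, 0 members were called by limma (0.883% of all genes). An unadjusted p under 0.05 was found for 1 member and for 2363 of 14953 genes. The lowest p was that of Pcna, at -0.20 ± 0.08 (SE), followed by Cenpa at 0.15 and Gins1 at -0.23.

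In cDC2 no member was called against WT in either knockout, although other settings called 1 or 2 members in Flt3L KO (1 under quantile normalization and 2 with a trended and robust variance prior), and the differences were mostly negative in Flt3 KO and mostly positive in Flt3L KO. For Flt3 KO against WT, 0 members were called by limma (0.107% of all genes), 1 had an unadjusted p under 0.05, and 32 of 39 differences were negative with a median of -0.12. Over all 14953 genes, 1089 had such a p and 6875 differences were negative. The members' median was 0.03 without replicate 2 of Flt3 KO cDC2 and -0.27 without replicate 1. Ccne1 had 146 and 136 in Flt3 KO cDC2 against 168 and 166 in WT, a log2 difference of -0.25 ± 0.09 (SE) with an adjusted p of 0.505 in limma, and the groups did not overlap. Kif20a, a kinesin of cytokinesis, and Gins1 had -0.32 ± 0.16 (SE) and -0.25 ± 0.13 (SE). For Flt3L KO against WT, 0 members were called by limma (1.95% of all genes), 12 had an unadjusted p under 0.05, and 37 of 39 differences were positive with a median of 0.22. Over all 14953 genes, 2185 had such a p and 8305 differences were positive. Both comparisons use the same WT arrays, so their signs are not independent. The members also shifted together between replicates, so the signs within a comparison are not independent either.

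By role, the medians in Flt3L KO cDC2 against WT ranged from 0.08 for the G1/S cyclins to 0.35 for the S/G2/M cyclins and Cdk1, with 0.19 for the helicase genes, 0.24 for the mitotic kinases and 0.19 for the spindle proteins. The members with the smallest p act in mitosis. Birc5 had 307 and 244 in Flt3L KO cDC2 against 201 and 201 in WT cDC2, a log2 difference of 0.45 ± 0.11 (SE) with an adjusted p of 0.0632 in limma. Ccnb2, cyclin B2, had 556 and 471 against 373 and 370, a difference of 0.46 ± 0.12 (SE) with an adjusted p of 0.0673. Ube2c had 74.6 and 73.7 against 58.6 and 61.3, a difference of 0.31 ± 0.09 (SE) with an adjusted p of 0.121. The groups did not overlap for these genes. In all, 21 members lay higher in Flt3L KO cDC2 without overlap, where 27.2% of all genes did. Birc5 was called without replicate 2 of Flt3L KO cDC2, where the members' median was 0.33. Without replicate 1 of that group 0 members were called and the median was 0.08.

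Set against each other in cDC2, the knockouts differed in 2 members, Ube2c and Ccnb2, where limma called 0.93% of all genes and 0.461% as higher. Ube2c had 74.6 and 73.7 in Flt3L KO cDC2 against 57.2 and 49.7 in Flt3 KO cDC2, a log2 difference of 0.48 ± 0.09 (SE) with an adjusted p of 0.0324 in limma. Ccnb2 had 556 and 471 against 393 and 298, a difference of 0.58 ± 0.12 (SE) with an adjusted p of 0.0408. Their promoters are among those shown, with 2 and 3 CCAAT boxes. Over the full promoters, CCAAT stood in 80% of the members' promoters, and a link of these boxes to the calls was not tested. All 39 differences were positive, with a median of 0.33 against 0 over all genes, and 25 had an unadjusted p under 0.05. Over all 14953 genes, 7642 differences were positive and 1892 had such a p. The groups did not overlap for 27 members, against 22.1% of all genes that were higher without overlap. The members shifted together between replicates: 38 of 39 were higher in replicate 1 of Flt3 KO cDC2, and 35 in replicate 1 of Flt3L KO cDC2. These counts of members are therefore not counts of independent observations. Birc5, Ccna2 and Mki67 came next, at 0.49 ± 0.11 (SE), 0.52 ± 0.13 (SE) and 0.51 ± 0.13 (SE), with adjusted p values of 0.0645, 0.0836 and 0.0933 in limma. The cyclins and Cdk1 had a median of 0.52, the spindle proteins 0.40, and the helicase genes 0.22. Ube2c lost its call without replicate 2 of Flt3L KO cDC2. Without replicate 2 of Flt3 KO cDC2, or without replicate 1 of Flt3L KO cDC2, 0 members were called and the median was 0.19; without replicate 1 of Flt3 KO cDC2, 4 were called.

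**Figure D3:**
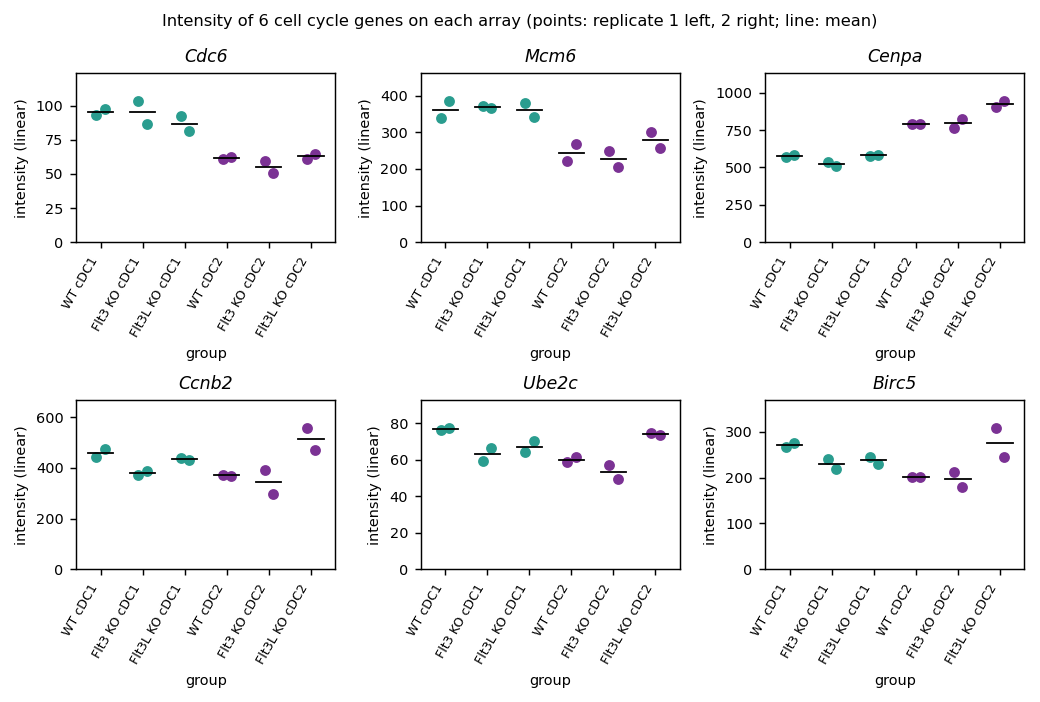
Intensity (linear axis from 0) of 6 members in the 6 groups, with replicate 1 as the left point, replicate 2 as the right point and the mean as a line, cDC1 in teal and cDC2 in purple. Cdc6 and Mcm6 lie higher and Cenpa lower in cDC1, and Ccnb2, Ube2c and Birc5 lie highest within cDC2 in Flt3L KO.

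A test of whether a knockout acted differently in cDC2 and cDC1 called 0 members for either knockout. For Flt3L KO the members' median difference of effects was 0.20 (0.09 to 0.35 with an array left out in turn), and limma called 0.495% of all genes. Birc5 had 0.64 ± 0.16 (SE) with an adjusted p of 0.102 in limma (called without replicate 2 of Flt3L KO cDC2), Ube2c had 0.50 ± 0.13 (SE) with 0.112, and Ccnb2 had 0.54 ± 0.17 (SE) with 0.178. For Flt3 KO the median was -0.12 (-0.26 to 0.05 with an array left out in turn), limma called 0% of all genes, and Gins1 led with -0.47 ± 0.19 (SE) and an adjusted p of 0.514, followed by Ccne1 at -0.27 and Ccne2 at -0.56. Members with an unadjusted p under 0.05 numbered 6 for Flt3L KO and 2 for Flt3 KO, against 2220 and 1342 of all 14953 genes. Thus the opposite order of the cell types for Ube2c in WT (0.36) and Flt3L KO (-0.14) did not pass the test of that difference.

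Some cell cycle genes outside the members were called in the knockouts. In Flt3L KO cDC2 against WT, limma called 1.95% of all genes. Of 70 other mitosis genes, 3 were higher and 0 lower, with a median of 0.19. They were Aspm, a spindle pole protein, with 104 and 99.2 against 65.1 and 80.5 in WT, Fam83d, a spindle protein, with 99.0 and 82.8 against 59.8 and 65.2, and Ccnf with 299 and 258 against 202 and 209. The adjusted p values in limma were 0.0202, 0.0172 and 0.0479. Against Flt3 KO cDC2, 4 of 70 were higher (these genes and Cenpi, a centromere protein), with a median of 0.29. Of 42 other replication genes, 1 was higher, the histone chaperone Asf1b. Of all genes, 0.461% were called higher in that comparison.

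Inhibitors moved in both directions. Btg2, an antiproliferative gene, had 1485 and 1654 in Flt3L KO cDC1 against 2001 and 2100 in WT cDC1, and 1449 and 1416 in Flt3L KO cDC2 against 1970 and 2173 in WT cDC2. It fell by 0.39 and 0.53 on the log2 scale, with adjusted p values of 0.0494 and 0.00787 in limma, and in cDC2 it was also lower than in Flt3 KO, with a difference of -0.53 ± 0.08 (SE). In Flt3L KO cDC1, Cdkn2b, an inhibitor of Cdk4 and Cdk6, fell by 0.38 and Ccng2, a cyclin linked to cell cycle arrest, rose by 0.42. Of the 149 further genes, the only one called in Flt3 KO cDC1 against WT was Rfc3, a clamp loader subunit. It had 186 and 173 against 109 and 124 in WT, a log2 difference of 0.63 ± 0.10 (SE) with an adjusted p of 0.0427 in limma. Rfc3 was not particular to cDC1: in Flt3 KO cDC2 it had 194.1 and 170.5 against 143.5 and 137.8 in WT. Those groups did not overlap either, but the gene was not called there.

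The spread between replicates was large for these genes in several groups. In Flt3 KO cDC2, 38 of 39 members were higher in replicate 1 than in replicate 2, with a median log2 difference of 0.27, and 21 members differed by more than 0.25 against 9.78% of all genes. In Flt3L KO cDC2, 35 were higher in replicate 1 (median 0.28), and 22 differed by more than 0.25 against 9.41% of all genes. In WT cDC1 the direction was opposite, with 37 of 39 lower in replicate 1 and a median of -0.25, and 20 differed by more than 0.25 against 21.8% of all genes. The other groups had medians of 0.05 (Flt3 KO cDC1), 0.10 (Flt3L KO cDC1) and -0.05 (WT cDC2). The median over all genes was within 0.01 of 0 in each group, but the deposited arrays have nearly the same distribution of values, which tends to hold that median near 0. Whether an effect on the whole array lay behind the members' shifts was not tested.

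Single genes show how wide this spread was. Bub1 had 45.96 in replicate 1 and 82.7 in replicate 2 of WT cDC1, a difference of -0.85, the widest of any member. Ccne2 had 45.05 and 29.6 in Flt3 KO cDC2, a difference of 0.61, and Plk1 had 172 and 114 in Flt3L KO cDC2, a difference of 0.59. Cenpa was the exception in Flt3 KO cDC2, with 762 in replicate 1 and 825 in replicate 2. For comparison, Ccnb2, 1 of the 2 members called between the knockouts in cDC2, differed by 0.58. As a median over members, replicate 1 of Flt3L KO cDC2 lay 0.31 above the mean over arrays and replicate 2 of Flt3 KO cDC2 lay 0.30 below it.

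**Figure D4:**
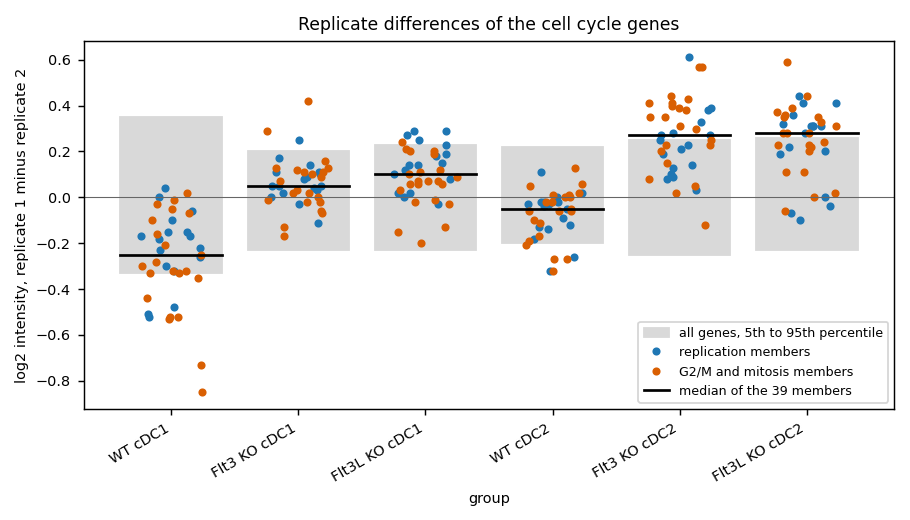
Log2 intensity of replicate 1 minus replicate 2 for each member in each group, with the median of the members as a line and the 5th to 95th percentile of all genes as a grey box. In Flt3 KO cDC2 and Flt3L KO cDC2, 21 and 22 members lie outside the grey box.

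**Figure D5:**
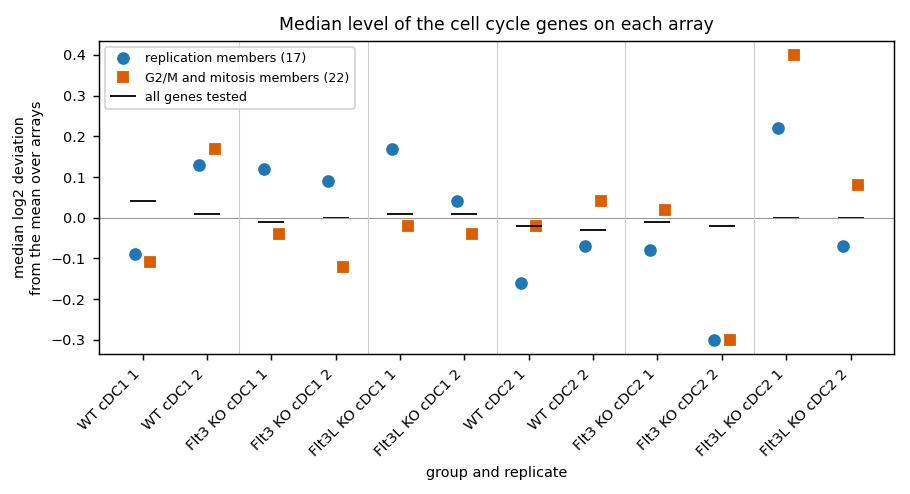
Median log2 deviation from the mean over arrays for the replication members, the G2/M and mitosis members and all genes on each array. Replicate 1 of Flt3L KO cDC2 is highest, at 0.22 for replication and 0.40 for mitosis, and replicate 2 of Flt3 KO cDC2 is lowest, at -0.30 for both, while all genes lie within 0.04 of 0.

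Markers of other cells were set beside the cDC2 result. The summed intensity of 9 macrophage markers was 883 and 925 in WT cDC2, 1424 and 1226 in Flt3 KO cDC2, and 2690 and 2238 in Flt3L KO cDC2, against 778 to 1023 in cDC1. In Flt3L KO cDC2 against WT, 7 of 8 tested macrophage markers were higher (median 1.09), and 5 of 8 against Flt3 KO (median 0.73). C1qa averaged 679 ± 156 (SD, n = 2) in Flt3L KO cDC2, 322 ± 59.0 (SD, n = 2) in Flt3 KO cDC2 and 146 ± 14.96 (SD, n = 2) in WT cDC2, while Cd5l stayed between 17.3 and 29.1 over all arrays, too dim to be tested. In Flt3 KO cDC2 against WT, 2 of 8 were higher (median 0.41), while the members' median was -0.12. Between cell types, cDC1 of Flt3L KO had 0 of these 8 higher and 6 lower than cDC2, and WT and Flt3 KO each had 2 higher and 5 lower. Of the progenitor, erythroid, B cell, plasma cell, T cell, NK cell, pDC and neutrophil lists, 0 genes were higher in Flt3L KO cDC2 than in WT cDC2 or Flt3 KO cDC2, and 2 of 8 cDC1 markers and 1 of 4 monocyte markers were higher than in WT. Over all 14953 genes, 155 were called higher than in WT cDC2 and 69 than in Flt3 KO cDC2. Some lists had few tested genes, such as 1 of 6 for NK cells and 3 of 7 for neutrophils. A count of 0 in lists this short therefore says little about whether such cells were present. The part of these markers in the members' result was not tested.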

How the data were processed

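The authors deposited a table of linear array intensity for 30177 probe sets on 12 GeneChip arrays; per the labels, total RNA was amplified and biotin-labelled. Summarisation and normalization by the authors were not given in the sources used here. Values were taken to log2 from the deposited scale. Probe sets with a single symbol in the platform annotation (21789; 1621 had several symbols and 6767 were not in the table) gave 19938 genes, each represented by its probe set with the highest mean, and a share of 0.25 of genes, the dimmest, was left out. limma 3.58.1 in R 4.3.3 fitted the 6 group means, with 6 residual degrees of freedom, and tested 12 comparisons. A gene was called at an adjusted p (Benjamini-Hochberg over 14953 genes) under 0.05. Depth has no counterpart on arrays; the median SE was 0.09 within a genotype or cell type, 0.05 for the average over genotypes and 0.13 for differences of effects, on the log2 scale. The fit was tested on simulated data.

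The members, the 5 further lists of 159 genes (151 with a value) and the 13 marker lists were chosen with earlier results of these data known. All members may be named. Of called members, all were described where 8 or fewer, and otherwise the 4 largest rises and 4 largest falls; where none was called, the 3 with the smallest p. Of each further list, up to 4 called genes with the smallest p were taken. Others were named after their values were seen, where they complete a gene family or a count. The promoter letters were chosen with the members' promoters in view. Replicate numbers come from the labels, which do not say what shares a number. Alternatives were quantile normalization, other filters, another variance prior, the mean of probe sets, only the arrays compared, blocks on replicate number and each array left out in turn.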

Additional observations from a re-analysis of the deposited data

Results flagged for a closer look

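Cdkn2b, which encodes an inhibitor of Cdk4 and Cdk6, responded to Flt3L KO differently in the cell types by a test of that difference. Its intensity was 53.6 and 51.5 in Flt3L KO cDC1 against 70.9 and 65.7 in WT cDC1, and 71.8 and 70.9 in Flt3L KO cDC2 against 55.4 and 60.4 in WT cDC2. The effect in cDC2 minus the effect in cDC1 was 0.68 ± 0.11 (SE) on the log2 scale, with an adjusted p of 0.0208 in limma, and the groups did not overlap in either cell type. The rise in Flt3L KO cDC2 against WT was not itself called. In Flt3 KO cDC2 the gene had 51.8 and 48.4. Flt3L KO cDC2 was called higher than Flt3 KO cDC2, by 0.51 ± 0.08 (SE) with an adjusted p of 0.0119 in limma. In Flt3 KO cDC1 the gene had 52.6 and 54.5, near its values in Flt3L KO cDC1, so the lower level in cDC1 was not particular to Flt3L KO.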

How the results depend on the processing

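The averaged cDC1 against cDC2 count (23 members) ran from 21 to 27 over the settings and from 17 to 25 with an array left out. The WT count (9) was 15 under quantile normalization, 15 with a replicate block within the genotype, 7 with the replicate block by number, and 7 to 16 with an array left out. The Flt3 KO count (12) was 12 with the replicate block and 4 to 16 with an array left out; the Flt3L KO count (11) was 11 with the replicate block and 4 to 10. With the lowest 0.5 of genes left out, the Flt3L KO count was 10, with 4 higher and 6 lower.

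For Flt3L KO cDC2 against WT (0 called), 1 member was called under quantile normalization, with the lowest 0.5 of genes left out, with the replicate block, or with only the arrays compared. There were 2 with a trended and robust variance prior, where the genes called over the whole table went from 291 to 487, and 3 with crossed replicate numbers (WT numbers swapped) as the block; it was 0 to 1 with an array left out. For Flt3L KO against Flt3 KO cDC2 (2 called), the count was 3 with the replicate block, 1 with no filter on dim genes, 5 with the trended prior (139 to 268 over the whole table), 1 with only the arrays compared, and 0 to 4 with an array left out. Flt3 KO cDC1 and Flt3L KO cDC1 against WT gave 0 to 1 with an array left out, and the Flt3L KO difference of effects gave 1 with the trended prior and 0 to 1 with an array left out. The cause of these shifts was not tested. The remaining comparisons had 0 called members in every alternative run.

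For named members, 614 of 659 alternative values kept their direction and their side of the threshold, 34 lost the call, 11 gained it and 0 reversed. Over all genes, same-numbered arrays correlated weakly in their deviations (0.16 in WT, 0.09 in Flt3 KO and 0.15 in Flt3L KO between cell types). The values were -0.05 to -0.20 between WT and knockouts, and 0.04 to 0.17 between the knockouts, with 0.17 in cDC2. Among the members, 31 (WT), 28 (Flt3 KO) and 30 (Flt3L KO) deviated the same way between cell types. Between WT and knockouts 3 to 14 did so, and between the knockouts 24 to 36, with 36 in cDC2. The labels do not say what shares a number, and the all-gene correlations were weak, so the main fit used no block. These values do not settle whether same-numbered arrays are paired, and the WT count depends on a within-genotype block. The within-genotype and crossed blocks were chosen after seeing the data. With 2 arrays a group, leaving out 1 assumes that the lone array varies like the others. Differences under the median SE could not be seen, and larger ones of several SE could also stay uncalled. Birc5 and Ccnb2 in Flt3L KO cDC2 against WT are examples. A count of 0 called members therefore does not exclude changes of that size.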
